A study of Mus musculus with 8 samples.

Results

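The genes described were Trp53, which encodes the transcription factor p53, and 9 of its well-known direct target genes, 10 in all: Mdm2, Cdkn1a, Ccng1, Phlda3, Sesn1, Zmat3, Eda2r, Trp53inp1 and Aen. They were taken by symbol from a table of 23361 genes, and all 10 were found in it. RNA was sequenced from iTreg, regulatory T cells induced in culture, which came from naive wild-type CD4+ T cells of Foxp3-RFP reporter mice stimulated with anti-CD3/CD28 beads, IL-2 (50 U/ml) and TGF-β (2 ng/ml) for 3 days. Viable CD4+ Foxp3-RFP+ cells were sorted by surface neuropilin-1 into Nrp-1+ iTreg (4 libraries) and Nrp-1- iTreg (4 libraries), so both groups shared the genotype, the reporter and the culture. The time label of every library gives day 5 instead of day 3.

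The p53 protein is held at low levels in unstressed cells by the ubiquitin ligase Mdm2, and it is stabilised when DNA damage kinases such as ATM and CHK2 phosphorylate it. It then switches on genes for cell cycle arrest, DNA repair and cell death. Mdm2 is itself a target, which closes a negative feedback loop, whereas p21, the product of Cdkn1a, inhibits cyclin-dependent kinases and thereby lets the DREAM complex repress genes of the cell cycle. Much of the control of p53 acts on the protein, which RNA levels do not show.

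Nrp1, whose protein was the basis of the sort, averaged 21.5 ± 0.709 FPKM (SD, n = 4) in the Nrp-1+ group versus 4.95 ± 0.262 FPKM in the Nrp-1- group, and Foxp3 115.8 ± 3.72 FPKM versus 108.8 ± 1.201 FPKM (adjusted p = 0.0245 by limma, and from 0.0131 to 0.322 over the alternatives). Of 8 markers of T cells and regulatory T cells, 5 were higher, Nrp1 itself among them, beside 20.9% higher and 20% lower of all genes tested, and Cd3e and Cd4 averaged 221.9 versus 235.4 FPKM and 315.0 versus 325.1 FPKM. FPKM is the number of fragments per kilobase of transcript, scaled to the mapped fragments of the library. Of 13 markers of B cells, myeloid cells, NK cells, CD8 T cells and plasmacytoid dendritic cells, 12 had a mean under 1 FPKM and Ms4a1 was listed at 0 in all 8 libraries. Their summed level spanned 8.18 to 9.44 FPKM in Nrp-1+ iTreg versus 10.3 to 11.8 FPKM in Nrp-1- iTreg, mostly from Cd8b1 (7.86 and 10.003 FPKM on average), while Cd8a averaged 0.0571 and 0.0474 FPKM. The part of these cells in the results was not tested. Sequencing depth relative to the first library lay between 0.810 and 1.24. The share of total FPKM in short RNA genes ranged between 1.77% and 43.9%, and all 4 calls among the 10 genes were the same without them. The labels name biological replicates but not separate mice or cultures, so the p-values measure the spread between these libraries.

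Among the 10 genes, Cdkn1a, Phlda3, Zmat3 and Ccng1 were higher in Nrp-1+ iTreg, and none was lower. Cdkn1a was 78.2% higher and Phlda3 64.8% higher, whereas Zmat3 was 18.9% and Ccng1 12.98% higher, as ratios of mean FPKM. Trp53, Mdm2, Sesn1, Trp53inp1 and Aen did not pass the test, and Eda2r was too low to be tested. Of the 9 tested members, 4 therefore had an adjusted p under 0.05 by limma on log2(FPKM + 1), all of them higher, and the same 4 had no overlap between the groups. Over all 10467 genes tested, those with a mean of at least 1 FPKM, 40.9% passed in either direction, 20.9% higher and 20% lower, and 39.5% had groups without overlap, 20.2% with Nrp-1+ iTreg higher and 19.3% with it lower. The median log2 fold change was 0.08 over the 9 members and -0.02 over all genes tested. In bulk RNA, more cells that express a gene and more RNA per cell cannot be told apart.

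**Figure D1:**
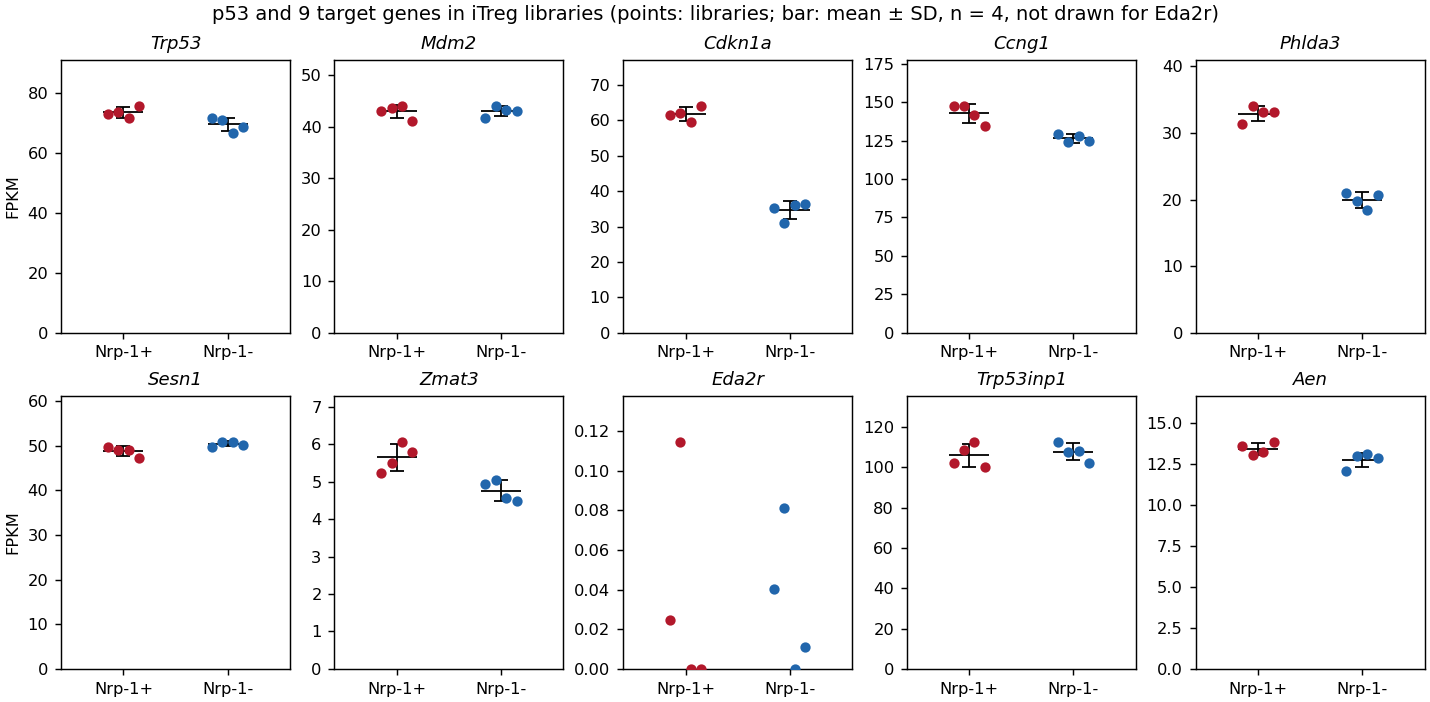
FPKM (linear axes from 0) of Trp53 and its 9 targets in single libraries of Nrp-1+ iTreg (red) and Nrp-1- iTreg (blue), with the mean and SD of 4 libraries as black bars (none for Eda2r, which was listed at 0 in some libraries). The groups stand apart for Cdkn1a (59.5 to 64.2 FPKM against 31.1 to 36.3 FPKM) and Phlda3, lie closer together without overlap for Ccng1 and Zmat3, and overlap for the other 6 genes.

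Cdkn1a encodes p21, an inhibitor of cyclin-dependent kinases that arrests the cell cycle. It lies at chr17:29090976-29100727 on the plus strand (GRCm38, GENCODE M21). In the Nrp-1+ iTreg libraries it was at 61.6, 62.2, 59.5 and 64.2 FPKM, and in the Nrp-1- iTreg libraries at 35.4, 31.1, 36.1 and 36.3 FPKM. Every Nrp-1+ iTreg library was above every Nrp-1- iTreg library, and the lowest of the former exceeded the highest of the latter by more than the range of either group. The log2 fold change was 0.82 (standard error, SE, 0.05, 95% interval 0.70 to 0.93, adjusted p = 6.82e-06 by limma), and by size it ranked 169 of the 4282 genes that passed. With single libraries left out, it stayed between 0.77 and 0.84.

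To show the sequence at which p53 could act near the start of these genes, windows from 250 bases before to 50 bases after each RefSeq start (GRCm38.p6) were searched for the 10-base p53 consensus, on both strands and without mismatch. Of the 10 members, 8 had a window in the RefSeq table, all but Zmat3 and Trp53inp1. At least 1 match was found for Cdkn1a, Mdm2, Ccng1, Trp53, Sesn1 and Aen, and none for Phlda3 and Eda2r. Of all 27025 genes with a window, 9.55% had at least 1 match, and of all 32851 windows 8.36%. A pair of matches with at most 13 bases between them, which is the form of a full p53 response element, was present in 24 windows (0.0731%), 1 of them that of Cdkn1a. Its matches lie 12 bases apart, from 73 to 42 bases before the start, at one of the 2 starts of the gene. The 10 bases right after its second match differ from the consensus at 1 base, so the search without mismatch left them unmarked. Which stretches form a response element there was not tested. The sequences are printed 5′ to 3′ on the strand of the gene, with the matches in capitals, to set the pair in Cdkn1a, the member with the largest difference, beside the single matches of Ccng1, Mdm2 and Trp53.
Cdkn1a (chr17:29090896-29090947, plus strand): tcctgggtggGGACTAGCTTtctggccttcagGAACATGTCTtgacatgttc
Ccng1 (chr11:40755452-40755481, minus strand): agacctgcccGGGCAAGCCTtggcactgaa
Mdm2 (chr10:117710925-117710954, minus strand): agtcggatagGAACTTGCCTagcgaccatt
Trp53 (chr11:69580274-69580303, plus strand): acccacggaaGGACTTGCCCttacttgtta
A match is a description of the letters and not evidence of binding, and response elements outside these windows were not searched.

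Phlda3 encodes a pleckstrin homology domain protein that competes with AKT for membrane lipids and so restrains AKT (chr1:135766119-135769136, plus strand). Its level was 31.3, 34.1, 33.1 and 33.1 FPKM in Nrp-1+ iTreg, versus 21.04, 19.8, 18.4 and 20.7 FPKM in Nrp-1- iTreg. The groups were again far apart, with all Nrp-1+ iTreg libraries above all Nrp-1- iTreg libraries. The log2 fold change was 0.69 (SE 0.04, 95% interval 0.59 to 0.80, adjusted p = 8.96e-06 by limma), which ranked 312 by size among the genes that passed. Cdkn1a and Phlda3 kept an adjusted p under 0.05 in all 20 alternative fits, at most 0.00224 and 0.00702.

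Ccng1 encodes cyclin G1, which recruits a phosphatase to MDM2 (chr11:40748552-40755311, minus strand). It was the most abundant of the 10 genes, at 147.3, 147.8, 141.6 and 134.7 FPKM in Nrp-1+ iTreg, versus 129.5, 123.8, 127.9 and 124.6 FPKM in Nrp-1- iTreg. The groups did not overlap, and replicate 4 was the lowest of the Nrp-1+ iTreg libraries. The log2 fold change was 0.17 (SE 0.03, adjusted p = 0.00389 by limma), and it ranked 2851 by size among the genes that passed. With quantile normalization the adjusted p was 0.0572.

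Zmat3 encodes an RNA-binding zinc finger protein (chr3:32334792-32366014, minus strand). It was at 5.24, 5.51, 6.07 and 5.79 FPKM in Nrp-1+ iTreg, versus 4.93, 5.05, 4.57 and 4.47 FPKM in Nrp-1- iTreg. All Nrp-1+ iTreg libraries were above all Nrp-1- iTreg libraries, by a narrow margin. The log2 fold change was 0.21 (SE 0.05, adjusted p = 0.0138 by limma), with a rank of 2299 by size. Its coefficient of variation, 6.30% in Nrp-1+ iTreg and 5.85% in Nrp-1- iTreg, was the largest of the 9 tested members in Nrp-1+ iTreg and came after those of Cdkn1a (7.09%) and Phlda3 (5.95%) in Nrp-1- iTreg.

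**Figure D2:**
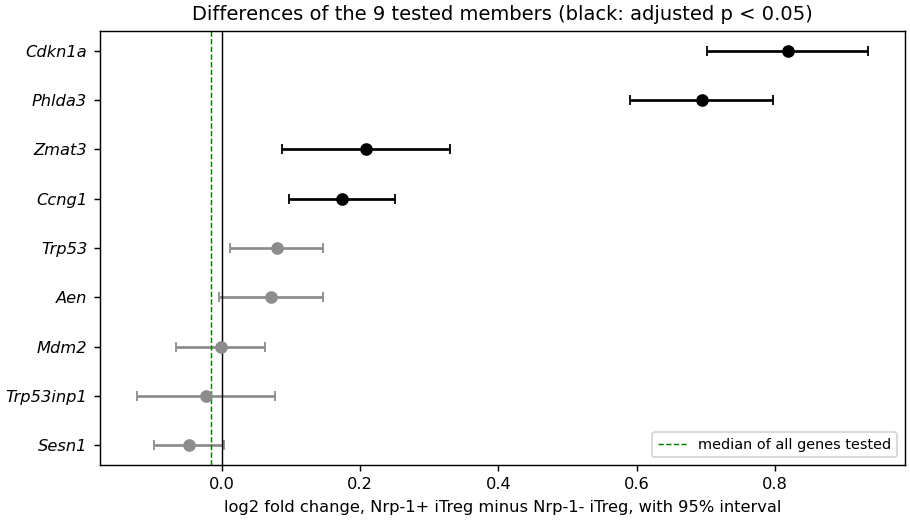
Log2 fold change (Nrp-1+ iTreg minus Nrp-1- iTreg, on log2(FPKM + 1)) with its 95% interval for the 9 tested members, in black where the adjusted p by limma was under 0.05 and in grey otherwise. Cdkn1a (0.82) and Phlda3 (0.69) have intervals above those of Zmat3 (0.21) and Ccng1 (0.17), and the other 5 genes lie between -0.05 and 0.08, near the dashed median of all genes (-0.02).

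Trp53 itself (chr11:69580359-69591873, plus strand) was at 73.0, 73.9, 71.6 and 75.9 FPKM in Nrp-1+ iTreg, versus 71.9, 70.9, 66.8 and 68.8 FPKM in Nrp-1- iTreg. The groups overlapped only because replicate 3 of the Nrp-1+ libraries lay under replicate 1 of the Nrp-1- libraries. The mean was 5.76% higher in Nrp-1+ iTreg, or 0.08 on the log2 scale (SE 0.03, 95% interval 0.01 to 0.15, adjusted p = 0.0589 by limma, exact two-sided permutation p = 0.0571). The adjusted p ran from 0.0392 to 0.245 over the 20 alternative fits, of which 2 passed, those with median-of-ratios size factors (0.0451) and without replicate 1 of Nrp-1- iTreg (0.0392). Of its relatives, Trp63 was listed at 0 in all libraries, and Trp73 at 0.0506 to 0.113 FPKM in Nrp-1+ iTreg versus 0.0282 to 0.0832 FPKM in the other group.

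Mdm2, the ubiquitin ligase of the feedback loop (chr10:117688875-117710758, minus strand), was at 43.0, 43.7, 44.0 and 41.2 FPKM in Nrp-1+ iTreg, versus 41.7, 44.1, 43.2 and 43.1 FPKM in Nrp-1- iTreg. The groups covered nearly the same range. The log2 fold change was -0.0013 (SE 0.03, adjusted p = 0.977 by limma), and its 95% interval ran from -4.42% to 4.43%, so a difference of the size seen for Ccng1 lies outside it. The sign of this value changed in 5 of the 20 alternative fits.

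Sesn1 encodes sestrin 1, a stress-induced inhibitor of mTORC1 signalling (chr10:41809935-41908424, plus strand). Its range was 47.2 to 49.8 FPKM in Nrp-1+ iTreg versus 49.8 to 51.0 FPKM in Nrp-1- iTreg, a mean difference of -3.24% (adjusted p = 0.124 by limma). Trp53inp1, whose product promotes autophagy and cell death (chr4:11156431-11174379, plus strand), spanned 100.3 to 112.7 FPKM versus 102.3 to 112.7 FPKM, with a mean difference of -1.53% (adjusted p = 0.707). Aen, a nuclease of apoptosis (chr7:78895854-78911209, plus strand), spanned 13.03 to 13.8 FPKM versus 12.1 to 13.1 FPKM, 5.45% higher in the mean (adjusted p = 0.117). For these 3 genes the groups overlapped, and the 95% intervals of the difference reached from -6.52% to 0.251%, from -8.17% to 5.51% and from -0.258% to 10.7%. Eda2r, a receptor of the TNF receptor family (chrX:97333840-97377216, minus strand), was listed at 0.0249, 0.115, 0 and 0 FPKM in Nrp-1+ iTreg, versus 0.0402, 0.0814, 0 and 0.0112 FPKM in Nrp-1- iTreg. No difference in Eda2r was detectable at this level.

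By level per length, the order in Nrp-1- iTreg was Ccng1, Trp53inp1, Trp53, Sesn1, Mdm2, Cdkn1a, Phlda3, Aen, Zmat3 and Eda2r. In Nrp-1+ iTreg, Cdkn1a stood above Sesn1 and Mdm2, and the other genes kept their order. No 2 neighbours in either order had overlapping ranges over the 4 libraries. As a description over 8 libraries, the genes with a mean of at least 5 FPKM whose log2 level was most like that of Cdkn1a were Gtf2ird1 (Pearson r = 0.999), Mcm3 (0.997) and Actn4 (0.996), out of 8140 genes, and 1058 genes had an r over 0.9. Those most like Trp53 were Nrip1 (0.963), Bcl9l (0.960) and Pcyt1a (0.955), with 38 genes over 0.9. These correlations include the difference between the groups.

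Upstream of p53, 9 of 17 genes of DNA damage signalling were higher in Nrp-1+ iTreg and none lower, beside 20.9% higher and 20% lower of all genes tested. Earlier results of these data were known when the list was drawn up, so this count is not independent evidence. The part of the cell cycle in it was not tested. The median log2 fold change of the list was 0.22, and 0.39 with the filter at a mean of 5 FPKM. Chek1 and Chek2, the checkpoint kinases that act after ATR and ATM, were at 9.15 ± 0.261 FPKM against 4.36 ± 0.176 FPKM and at 12.5 ± 0.904 FPKM against 7.30 ± 0.3005 FPKM (SD, n = 4), with adjusted p values of 5.75e-07 and 2.07e-05 by limma. Clspn, the adaptor that brings Chk1 to stalled forks, was 92.8% higher. Atm was at 8.24 ± 0.397 FPKM and 8.54 ± 0.376 FPKM (adjusted p = 0.415). Both checkpoint kinase genes passed the test and Atm did not, and the difference between them was not tested. Without replicate 2 of Nrp-1+ iTreg, 1 gene of the list was lower.

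Of 17 regulators of p53, 2 were higher and 5 lower, a called share of 41.2% beside 40.9% of all genes tested, so the count did not set the list apart (median log2 fold change -0.03). Ppm1d, a phosphatase that dampens p53 and is also its target, was at 20.8 ± 0.861 FPKM against 17.1 ± 0.469 FPKM (adjusted p = 0.000510 by limma). Cdkn2a, whose locus encodes p16 and the Mdm2 inhibitor p19Arf, was low at 1.46 ± 0.406 FPKM against 0.626 ± 0.142 FPKM (adjusted p = 0.00809), and these products cannot be told apart at gene level. It passed the filter on low values only through the Nrp-1+ group, so its call and its place in the count of higher regulators rest on that. Usp7, the deubiquitinase of Mdm2 and p53, was lower, with a difference of -10.2% (adjusted p = 0.00512), as was Daxx, which binds Mdm2, with -15.6% (adjusted p = 0.00106). Mdm4, the partner of Mdm2, was at 17.7 ± 1.02 FPKM and 17.4 ± 0.998 FPKM (adjusted p = 0.791). Without replicate 1 of Nrp-1+ iTreg, 4 regulators were higher instead of 2, with the filter at 5 FPKM 1 was higher, and correcting for GC and length left 3 lower instead of 5.

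**Figure D3:**
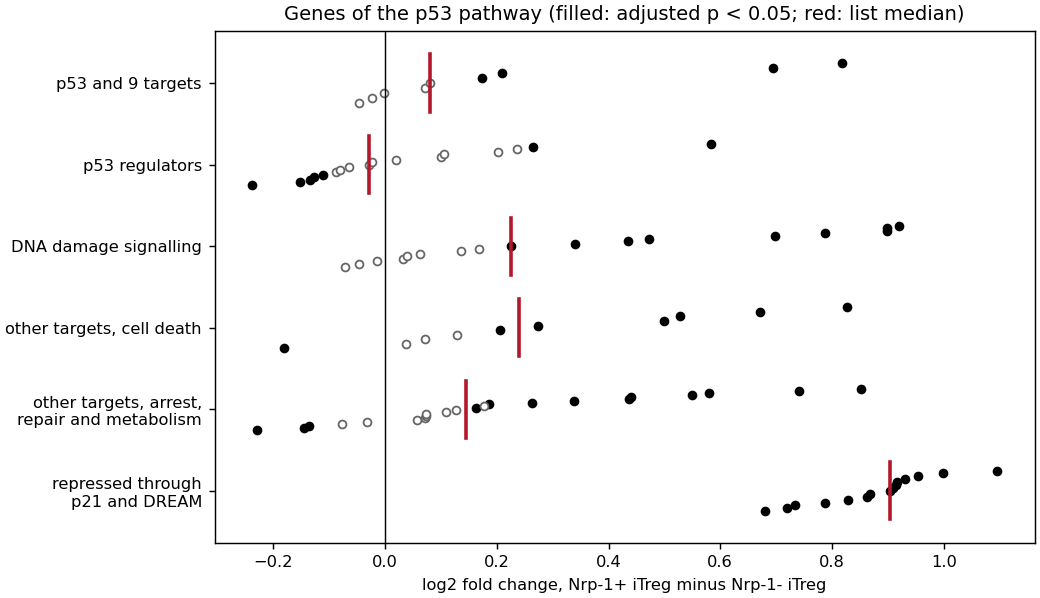
Log2 fold change (Nrp-1+ iTreg minus Nrp-1- iTreg) of every tested gene in 6 lists of the p53 pathway, filled where the adjusted p by limma was under 0.05, with the median of each list as a red line. The 15 cell cycle genes form a separate cluster around 0.90, whereas the other lists spread from below 0 to above 0.5.

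Further targets of p53 that were not among the 10 genes were also not all higher. Of 10 targets with roles in cell death, 6 were higher and 1 lower (median log2 fold change 0.24), beside the 20.9% and 20% of all genes tested. Pmaip1, which encodes the BH3-only protein Noxa, was at 10.9 ± 0.510 FPKM against 7.41 ± 0.372 FPKM (adjusted p = 5.72e-05 by limma). Bbc3, which encodes the BH3-only protein Puma, was lower, at 49.8 ± 1.29 FPKM against 56.6 ± 1.13 FPKM (adjusted p = 0.000741), but its adjusted p was 0.105 with the GC and length correction. Perp, a membrane protein gene, was at 2.65 ± 0.368 FPKM against 1.05 ± 0.0971 FPKM (adjusted p = 0.000130), and Lrdd, an older symbol of the death domain gene Pidd1, at 6.66 ± 0.201 FPKM against 3.81 ± 0.244 FPKM (adjusted p = 1.15e-05). Bax and Fas did not pass, at 147.2 ± 6.08 FPKM against 140.0 ± 4.28 FPKM and 53.4 ± 1.81 FPKM against 52.1 ± 2.78 FPKM (adjusted p = 0.140 and 0.510).

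Of 24 targets with roles in arrest, repair and metabolism, 22 were tested, of which 10 were higher and 3 lower (median log2 fold change 0.14), again beside 20.9% and 20% of all genes tested. Gdf15 was listed at 0 throughout. Polh, a polymerase that copies past ultraviolet lesions, was at 26.4 ± 0.739 FPKM against 15.4 ± 0.697 FPKM (adjusted p = 1.87e-06 by limma), and Gtse1, a G2 and S phase protein that restrains p53, at 36.3 ± 1.07 FPKM against 19.6 ± 0.289 FPKM (adjusted p = 2.33e-07). Xpc, which recognises lesions in nucleotide excision repair, was lower, with a difference of -15.7% (adjusted p = 0.000520), as was the antiproliferative gene Btg2, with -9.17% (adjusted p = 0.00269). Gadd45a was at 6.55 ± 0.801 FPKM and 5.99 ± 0.694 FPKM (adjusted p = 0.391). With the filter at a mean of 5 FPKM, 6 genes of this list were higher, and the median was 0.07.

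All 15 genes of a list known to be repressed through p21 and the DREAM complex were higher in Nrp-1+ iTreg, the group with the higher Cdkn1a level, with a median log2 fold change of 0.90, beside 20.9% higher and 20% lower of all genes tested. Mcm5, a subunit of the replicative helicase, was at 83.0 ± 1.77 FPKM against 41.0 ± 0.830 FPKM (adjusted p = 1.59e-07 by limma). The direction is thus the opposite of what the name of the list says. That cell cycle genes were higher in Nrp-1+ iTreg was known from these libraries when the list was drawn up, so its count is not independent evidence. The part of the cell cycle in the differences of Cdkn1a and Phlda3 was not tested.

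**Figure D4:**
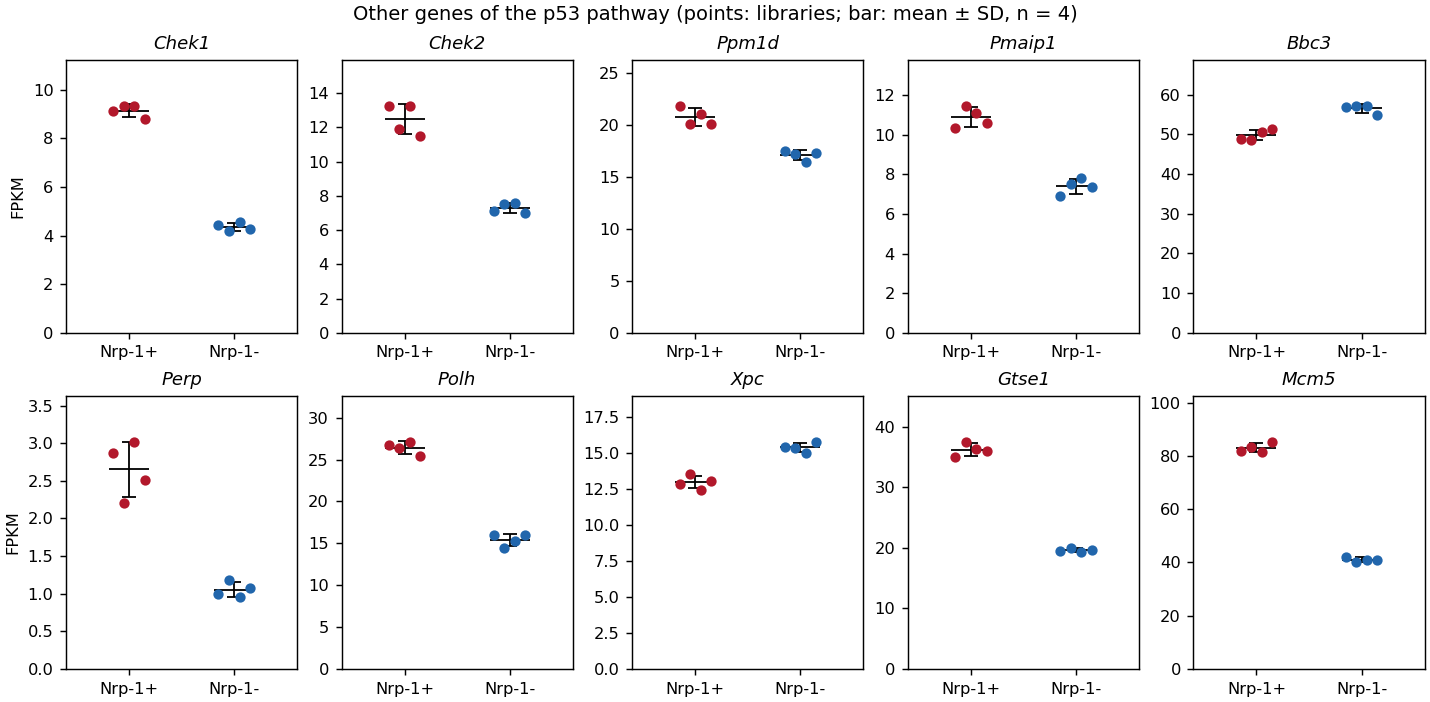
FPKM (linear axes from 0) of 10 further genes of the p53 pathway in single libraries of Nrp-1+ iTreg (red) and Nrp-1- iTreg (blue), with the mean and SD of 4 libraries as black bars. Chek1, Chek2, Perp, Polh, Gtse1 and Mcm5 were higher in Nrp-1+ iTreg by more than 1.5 times, Ppm1d and Pmaip1 by less, and Bbc3 and Xpc were lower, all without overlap. Only genes that passed without overlap are shown. The named pathway nodes that did not pass (Mdm4, Atm, Bax, Fas and Gadd45a) are left out.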

How the data were processed

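RNA-seq libraries of Nrp-1+ iTreg (4) and Nrp-1- iTreg (4) were used, grouped by the sample labels. Reads were handled by the authors in CLC Genomics Workbench, with FPKM computed by Cufflinks, and the deposited table holds FPKM by gene symbol. The build is GRCm38 (mm10) per the submitters' processing notes, and the annotation is not given in the sources used here. The study names a directional polyA kit, the labels another kit. FPKM values were used as deposited and are not counts, so the number of fragments per gene is unknown and no counting interval is given. Relative depth came from the commonest ratio of values under 0.3 FPKM between libraries.

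Genes with a mean of at least 1 FPKM (10467 of 23361) entered limma 3.58.1 in R 4.3.3 as log2(FPKM + 1) (lmFit, eBayes with intensity trend, no block) and Benjamini-Hochberg adjustment. This scale understates changes of low genes. Exact permutation tests, which cannot go below p = 0.0286 with 4 libraries against 4, used Python 3.11.15 with numpy 2.4.6, scipy 1.17.1 and pandas 2.3.3, and plots matplotlib 3.10.9. In simulated data for 10467 genes, 200 were changed and the noise was drawn separately for each gene. The fit recovered 95% of genes with a log2 change of 1 and 62% of those with 0.3. It made 6 false calls (3.68% of calls). In the real data 40.9% of genes passed, so these rates need not hold for this comparison.

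The members and gene lists were chosen with earlier results of these data known, so their counts are not independent evidence. Besides the members, genes were named by rule: pathway nodes (Mdm4, Usp7, Ppm1d, Atm, Chek1, Chek2, Bax, Bbc3, Pmaip1, Fas, Gadd45a, Btg2), the label checks Nrp1 and Foxp3, the 2 strongest rises and 2 strongest falls per list among genes that passed without overlap, and the 3 genes most correlated with Trp53 and with Cdkn1a. 1 gene that the rule names is not reported here. Trp63, Trp73, Gdf15, Cd3e, Cd4, Ms4a1, Cd8a and Cd8b1 were named after their values were seen. Alternatives were pseudocounts of 0.1 and 0.5, no filter, a filter at 5 FPKM, size factors, quantile normalization, a replicate block, no trend, array weights, no short RNA genes, each library left out, exact tests and, added after seeing the data, an adjustment by GC and transcript length (GENCODE M21) without and with the block. Same-numbered libraries did not deviate together. Promoter sequences are from RefSeq.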

Additional observations from a re-analysis of the deposited data

Results flagged for a closer look

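In 4 cases a library lay far from the other 3 of its group, by the gap to its nearest neighbour relative to the range of the group. Relative depth was 1.22 for replicate 3 in the Nrp-1+ group, with the others at 0.994 to 1.00. Lrdd was at 6.36 FPKM in that library, against 6.72 to 6.78 FPKM. In the Nrp-1- group, replicate 2 had 7.98 FPKM for Atm (others 8.70 to 8.80 FPKM), and replicate 4 had 54.9 FPKM for Bbc3 (others 57.0 to 57.2 FPKM). Of the 70 groups searched, about 3.5 are expected by chance, and none of these values concerned the 10 p53 genes.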

How the results depend on the processing

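The 4 higher members kept their direction in all 20 alternative fits, and no member was lower with an adjusted p under 0.05 in any. With the GC and length correction and the replicate block together, 2 members (Cdkn1a and Phlda3) passed, and all genes fell to 1344 higher and 1059 lower. The log2 fold change of Ccng1 was then 0.15 (adjusted p = 0.0565) and that of Zmat3 0.21 (adjusted p = 0.0868). In that fit 1 p53 regulator was higher and 1 lower, and 0 of the cell death targets were lower. Usp7 was at -0.17 (adjusted p = 0.0521, -0.15 in the main fit) and Cdkn2a at 0.60 (adjusted p = 0.067, 0.58 in the main fit). Bbc3 was at -0.13 (adjusted p = 0.143, -0.18 in the main fit). The GC and length correction alone left 3 regulators and 0 cell death targets lower. In both fits Fas turned to -0.0039. With the replicate block alone, Zmat3 was at 0.21 (adjusted p = 0.0580) and the other 3 higher members passed, with 1931 genes higher and 1675 lower. Deviations of same-numbered libraries correlated from -0.54 to 0.010 (-0.11 to -0.038 without short RNA genes), so the numbers gave no sign of pairing. Pairing under another numbering was not tested. Quantile normalization gave 0.16 for Ccng1 (adjusted p = 0.0572). Size factors gave 0.086 for Trp53 (adjusted p = 0.0451) and 0.0048 for Mdm2, and array weights 0.0041 for Mdm2. With the filter at 5 FPKM, 1 regulator was higher, 6 of the arrest, repair and metabolism targets were higher (median 0.074), and the median of the DNA damage list was 0.39. With single libraries left out, Trp53 ranged from 0.060 to 0.095, Mdm2 from -0.016 to 0.018, Trp53inp1 from -0.052 to 0.0029, Mdm4 from -0.014 to 0.049, regulators from 2 to 4 higher, the DNA damage list from 0 to 1 lower, and the median of the p21 and DREAM list from 0.87 to 0.91. The cause of these shifts was not tested. Eda2r lay under the filter on low values, and the depth behind single genes is unknown.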

Other observations

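Ratios within a library do not depend on scaling between libraries. The ratio of Cdkn1a to Trp53 in FPKM was 0.843, 0.842, 0.832 and 0.846 in Nrp-1+ iTreg and 0.492, 0.438, 0.541 and 0.527 in Nrp-1- iTreg. The SD was 0.00614 in Nrp-1+ iTreg and 0.0459 in Nrp-1- iTreg, so the Nrp-1+ iTreg libraries were nearly equal in this ratio. The ratio of Cdkn1a to Mdm2 was 1.44 ± 0.0851 (SD, n = 4) and 0.808 ± 0.0694, and that of Phlda3 to Mdm2 was 0.766 ± 0.0331 and 0.465 ± 0.0348. The genes of these 3 ratios were chosen after their values were seen, which fixed the separation of the groups, so the ratios are a description with no test.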
